A study of Mus musculus with 8 samples.

Results

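Proteasome subunit and assembly genes were followed in RNA sequencing of mouse bone-forming cells treated with locamidazole (LAMZ). Members were the gene symbols made of Psma, Psmb, Psmc, Psmd, Psme, Psmf or Psmg, a number and at most 1 further letter, with pseudogene symbols left out. The rule took 49 of the 51822 gene symbols in the deposited tables, and the 4 pseudogene symbols that it left out were at 0 in all 8 libraries. Of the 49 members, 5 belong to the immunoproteasome and its activator (Psmb8, Psmb9, Psmb10, Psme1 and Psme2), and the other 44 are called constitutive here.

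Cells were kept in an osteogenic medium of alpha-MEM and FBS with ascorbic acid, dexamethasone and β-glycerophosphate, and all groups shared it. Either the solvent DMSO, as control, or LAMZ at 1 uM was added, and RNA was taken on day 7 or day 14 of culture. Each of the 4 groups (day 7 control, day 7 LAMZ, day 14 control and day 14 LAMZ) had 2 libraries. Sample labels call the cells MC3T3-E1, which is an osteoblastic line, whereas the title of the series and the study's methods name calvarial cells, which come from skull bone and can hold several cell types.

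Marker genes were read against that label. None of the 10 osteoblast lineage genes was at 0 in any library, and Col1a1, the main collagen of bone, had an RPKM of 4354 and 5451 in control and 6252 and 6049.9 with LAMZ at day 7, and 6658 and 6220.4 in control and 8936 and 9964 with LAMZ at day 14. Macrophage and leukocyte genes were present in all 4 control libraries, which goes against a label of 1 osteoblastic line, and the files do not say which name is right. Lyz2, a lysozyme of macrophages, had an RPKM of 312 and 409 in control and 8.20 and 6.27 with LAMZ at day 7, and 695 and 789 in control and 5.99 and 5.29 with LAMZ at day 14. C1qa, a complement subunit made by macrophages, had an RPKM of 33.9 and 31.9 in the day 7 control and 74.0 and 59.1 in the day 14 control libraries and was at 0 in all 4 LAMZ libraries. C1qb, its partner, had an RPKM of 30.7 and 37.7 and 91.2 and 97.4 in the same control groups and was at 0 with LAMZ. The control libraries thus carried these transcripts and the LAMZ libraries carried little or none of them. Fewer cells of a type and less RNA per cell cannot be told apart in these bulk libraries.

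Control replicates stood apart from each other in interferon response genes on both days. The summed RPKM of the 15 genes on that list was 78.8 and 217 in control and 29.1 and 27.1 with LAMZ at day 7, and 165 and 95.9 in control and 59.0 and 57.7 with LAMZ at day 14. Day 7 control replicate 2 held the highest sum, and Isg15 alone, a ubiquitin-like protein induced by interferon, was 60.7 there and 10.5 in day 7 control replicate 1. Day 14 control replicate 1 also lay above its replicate, with Isg15 at 28.3 against 10.5. Results are therefore given with and without these 2 libraries where they decide a call. Nothing in the labels says that the replicates came from separate cultures, so p-values measure the spread between these samples, which may be technical.

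The proteasome is the protease that degrades proteins tagged with ubiquitin in the cytosol and nucleus. Its 20S core has outer rings of alpha subunits and inner rings of beta subunits, of which Psmb5, Psmb6 and Psmb7 carry the active sites, and the 19S cap of ATPases and non-ATPase subunits binds, unfolds and admits the substrate. In immune cells, and in other cells after interferon, Psmb8, Psmb9 and Psmb10 take the places of those active subunits and Psme1 and Psme2 form the PA28 activator, a form of the protease known for making peptides for MHC class I, while in bone-forming cells the proteasome is known for degrading regulators of osteoblast differentiation such as Runx2.

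Levels are given as RPKM, the reads of a gene divided by its length and by the mapped reads of that library, as deposited by the authors. Differences are log2 fold changes of log2(RPKM + 1), a scale on which the 1 added to each value understates the change of genes with low RPKM. They were tested with limma over the 12514 genes whose RPKM reached 1 in 2 or more of the 8 libraries. SE is the standard error of a difference, and a gene is called when its p, adjusted over all those genes by the Benjamini-Hochberg method, is under 0.05. Of the 49 members, 47 passed this filter. Psmb9 passed it through control libraries alone, so it had to be higher there, and Psme2b passed it through day 14 libraries alone. Psma8, a testis form of an alpha subunit, and Psmb11, the active subunit of thymus cortex, did not pass and were not tested, with RPKM of at most 0.484 and 0.125.

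Psmb8, Psmb10 and Psme2 fell with LAMZ on both days and Psme1 fell at day 14, while most constitutive transcripts differed little between LAMZ and control. At day 7, 4 of the 47 tested members were called, all lower with LAMZ (Psmb8, Psmb10, Psme2 and Psmc4). Over all tested genes 12.8% were called at day 7, 8.49% as lower. At day 14, 5 members were called, Psmb8, Psmb10, Psme1 and Psme2 as lower and Psmb5 as higher. The background at day 14 was 23% of the tested genes called, 16% as lower and 6.96% as higher. The share of members called was thus below the background on both days, and the calls stood mostly among the 5 immunoproteasome members, of which 3 were called at day 7 and 4 at day 14. The 42 tested constitutive members gave 1 call on each day. Each of the 4 day 7 libraries moved the day 7 count, which was 1 without control replicate 1 (7.67% of all tested genes) or LAMZ replicate 2 (5.26%), and 2 without control replicate 2 (9.26%) or LAMZ replicate 1 (4.21%). The day 14 count was 2 without day 14 control replicate 1 (14.2%), 3 without LAMZ replicate 1 (13.1%) and 1 without LAMZ replicate 2 (12.1%). All of these calls were lower.

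The median log2 fold change of the tested constitutive members was -0.06 at day 7 and -0.07 at day 14, against -0.08 and -0.15 among all tested genes. Psmb8, Psmb10, Psme1 and Psme2 each had both LAMZ libraries below both control libraries on each day. Over all tested genes, 35.9% lay lower without overlap at day 7 and 44.2% at day 14, and among the constitutive members these were 13 of 42 and 12 of 42. No scaling between libraries is stated for the deposited values. Rescaling every library to the same sum moved the median of all tested genes to -0.31 at day 7 and -0.43 at day 14. Rn7s1, a small noncoding RNA, alone took 18.1% to 33.7% of the sum of a library. Under that scaling 17 members were called at day 7, where 28.7% of all tested genes were (26.2% as lower), and 18 at day 14, where 46.3% were (42.5% as lower). All of these members were lower, Psmb9, which had to be, among them on both days, and the constitutive median relative to all tested genes was -0.03 and 0.03. Centring each library on its median gave 3 calls at day 7, all lower, against 12.8% of all tested genes called and 5.95% as lower. At day 14 it gave 7, of which 4 were higher and 3 lower, against 12.8% of all tested genes called as higher and 9.98% as lower.

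**Figure D1:**
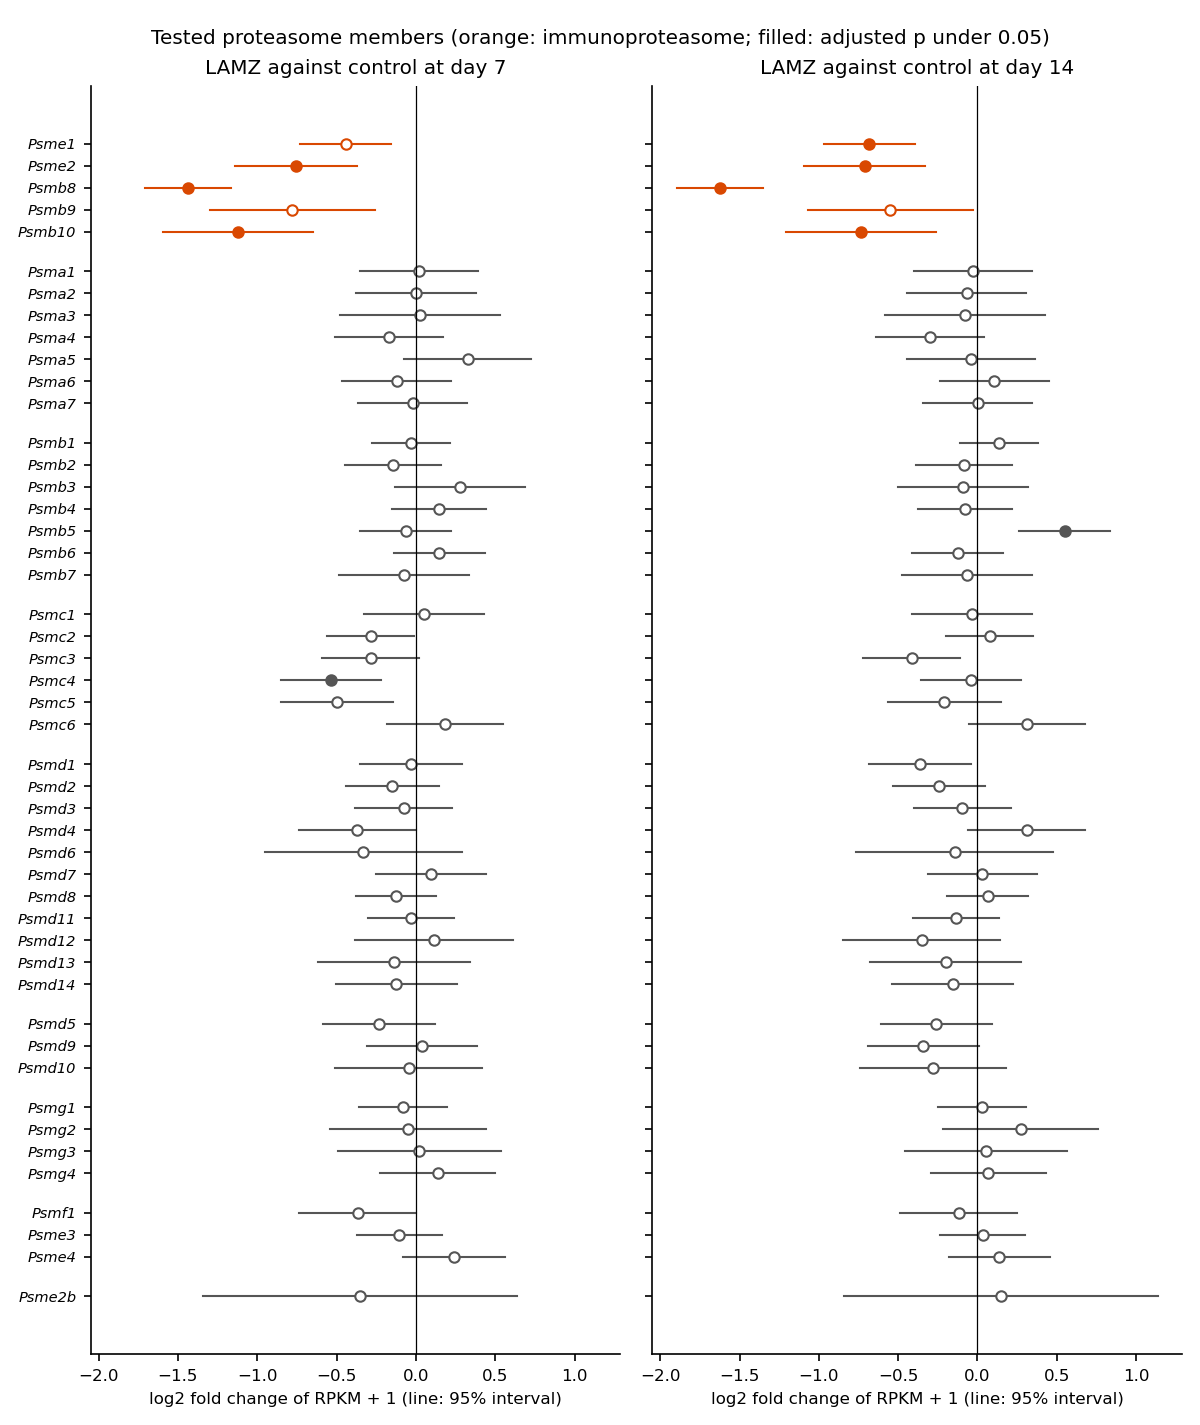
Points are log2 fold changes of log2(RPKM + 1), LAMZ against control, of the 47 tested members grouped by subcomplex at day 7 and day 14, with lines for 95% confidence intervals, orange for immunoproteasome members and filled points for genes called. Psmb8 lies lowest on both days at -1.44 and -1.63, and Psmb5 lies highest at day 14 at 0.55.

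The plot of log2 fold changes by subcomplex sets Psmb8, Psmb10, Psme1 and Psme2, in orange, below 0 on both days. Constitutive members spread around 0, from -0.54 (Psmc4) to 0.33 (Psma5) at day 7 and from -0.41 (Psmc3) to 0.55 (Psmb5) at day 14. Neither end was shared between the days, and no member's difference between the days passed the test described further on.

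Psmb8 (ENSMUSG00000024338, chromosome 17, 34197721 to 34201454 on GRCm38) encodes the immunoproteasome subunit that takes the place of Psmb5, and its annotated exons overlap Gm20496 on the other strand. The RPKM of Psmb8 was 6.49 and 6.86 in control and 1.71 and 1.96 with LAMZ at day 7, and 6.74 and 6.47 in control and 1.504 and 1.42 with LAMZ at day 14, from 19 to 99 reads. Control and LAMZ libraries did not overlap on either day, and replicates of a group were close. The mean RPKM was 3.63-fold lower with LAMZ at day 7 and 4.51-fold lower at day 14. Psmb8 fell with LAMZ by a log2 fold change of -1.44 (SE 0.12, adjusted p = 3.53e-04) at day 7 and -1.63 (SE 0.12, adjusted p = 8.80e-05) at day 14. It was called under all 19 alternatives in which it was tested on each day, with adjusted p up to 0.0162 and 0.00259.

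Psmb10 (ENSMUSG00000031897, chromosome 8, 105935735 to 105938444 on GRCm38) encodes the immunoproteasome counterpart of Psmb7. The RPKM of Psmb10 was 16.5 and 14.1 in control and 7.43 and 5.63 with LAMZ at day 7, and 12.0 and 7.78 in control and 5.23 and 5.65 with LAMZ at day 14. LAMZ libraries lay below the control libraries on both days, although day 14 control replicate 2 was near the higher LAMZ values of day 7. Psmb10 fell by a log2 fold change of -1.12 (SE 0.20, adjusted p = 0.0117) at day 7, a 2.34-fold lower mean RPKM. The call at day 7 was lost when either of 2 libraries was left out, at -1.01 (adjusted p = 0.0626) without day 7 control replicate 1 and -0.95 (adjusted p = 0.0822) without day 7 LAMZ replicate 2, with adjusted p of 0.00141 to 0.0822 over 20 alternatives. At day 14 it fell by -0.73 (SE 0.20, adjusted p = 0.0362), a 1.82-fold lower mean. That call was lost at -0.45 (adjusted p = 0.160) without day 14 control replicate 1, -0.69 (adjusted p = 0.147) without day 14 LAMZ replicate 1 and -0.78 (adjusted p = 0.115) without day 14 LAMZ replicate 2. Psmb10 at day 14 was also lost with no filter (adjusted p = 0.0983), under median centring (-0.54, adjusted p = 0.123), under quantile normalization (-0.58, adjusted p = 0.105) and with the 4 libraries compared alone (adjusted p = 0.0700). Adjusted p of Psmb10 was 0.00382 to 0.160 over 20 alternatives.

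Psmb9 (ENSMUSG00000096727, chromosome 17, 34181987 to 34187764 on GRCm38), the counterpart of Psmb6, shares its start region with Tap1 on the other strand. Strandedness of the libraries is not stated, so reads of overlapping genes cannot be told apart. The RPKM of Psmb9 was 1.45 and 1.26 in control and 0.192 and 0.577 with LAMZ at day 7, and 1.88 and 1.27 in control and 0.890 and 0.616 with LAMZ at day 14, from 3 to 37 reads. The LAMZ libraries were the low ones on both days, and the lowest, day 7 LAMZ replicate 1, rested on 3 reads. Psmb9 passed the filter through control libraries alone, so its tests of LAMZ against control as a single gene are not used.

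Psme1 (ENSMUSG00000022216, chromosome 14, 55578123 to 55581529 on GRCm38) encodes the alpha subunit of the PA28 activator, and its annotated exons overlap Emc9 on the other strand. The RPKM of Psme1 was 14.0 and 15.0 in control and 9.55 and 11.4 with LAMZ at day 7, and 14.2 and 14.4 in control and 9.004 and 8.07 with LAMZ at day 14. The LAMZ libraries were lower without overlap on both days, by less than for Psmb8. At day 14 Psme1 fell by a log2 fold change of -0.68 (SE 0.12, adjusted p = 0.00661), a 1.67-fold lower mean RPKM. It was -0.61 (adjusted p = 0.0515) without day 14 LAMZ replicate 2, the 1 alternative that ended this call, with adjusted p of 7.84e-04 to 0.0515 over 20 alternatives. At day 7 the log2 fold change was -0.44 (SE 0.12, adjusted p = 0.0554), which did not pass. It did pass at day 7 with a pseudocount of 5, at -0.34 (adjusted p = 0.0493), under a filter of a mean RPKM of at least 5, at -0.44 (adjusted p = 0.0360), and after rescaling to the same sum, at -0.72 (adjusted p = 0.00685), with adjusted p of 0.00685 to 0.283 over 20 alternatives.

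Psme2 (ENSMUSG00000079197, chromosome 14, 55587441 to 55591113 on GRCm38) encodes the beta subunit of PA28, and Psme2b, a near copy of it, may share its reads. The RPKM of Psme2 was 27.4 and 24.7 in control and 14.4 and 15.7 with LAMZ at day 7, and 20.8 and 23.4 in control and 15.6 and 11.03 with LAMZ at day 14. It was the most abundant immunoproteasome member in all 8 libraries, with LAMZ libraries below control libraries on both days. Psme2 fell by a log2 fold change of -0.76 (SE 0.17, adjusted p = 0.0233) at day 7 and -0.71 (SE 0.17, adjusted p = 0.0181) at day 14, which is 1.73-fold and 1.66-fold lower in mean RPKM. Each of the 4 day 7 libraries could end the day 7 call, at -0.68 (adjusted p = 0.0997) without day 7 control replicate 1, -0.83 (adjusted p = 0.0548) without day 7 control replicate 2, -0.70 (adjusted p = 0.142) without day 7 LAMZ replicate 1 and -0.81 (adjusted p = 0.0870) without day 7 LAMZ replicate 2. Psme2 at day 7 was also lost with no filter (adjusted p = 0.0641). Adjusted p of Psme2 was 0.00398 to 0.142 over 20 alternatives. The call at day 14 was lost at -0.79 (adjusted p = 0.0513) without day 14 control replicate 1, -0.63 (adjusted p = 0.101) without day 14 control replicate 2 and -0.48 (adjusted p = 0.0994) without day 14 LAMZ replicate 2. Psme2 at day 14 was also lost with the 4 libraries compared alone (adjusted p = 0.0551). Adjusted p of Psme2 was 0.00184 to 0.101 over 20 alternatives.

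**Figure D2:**
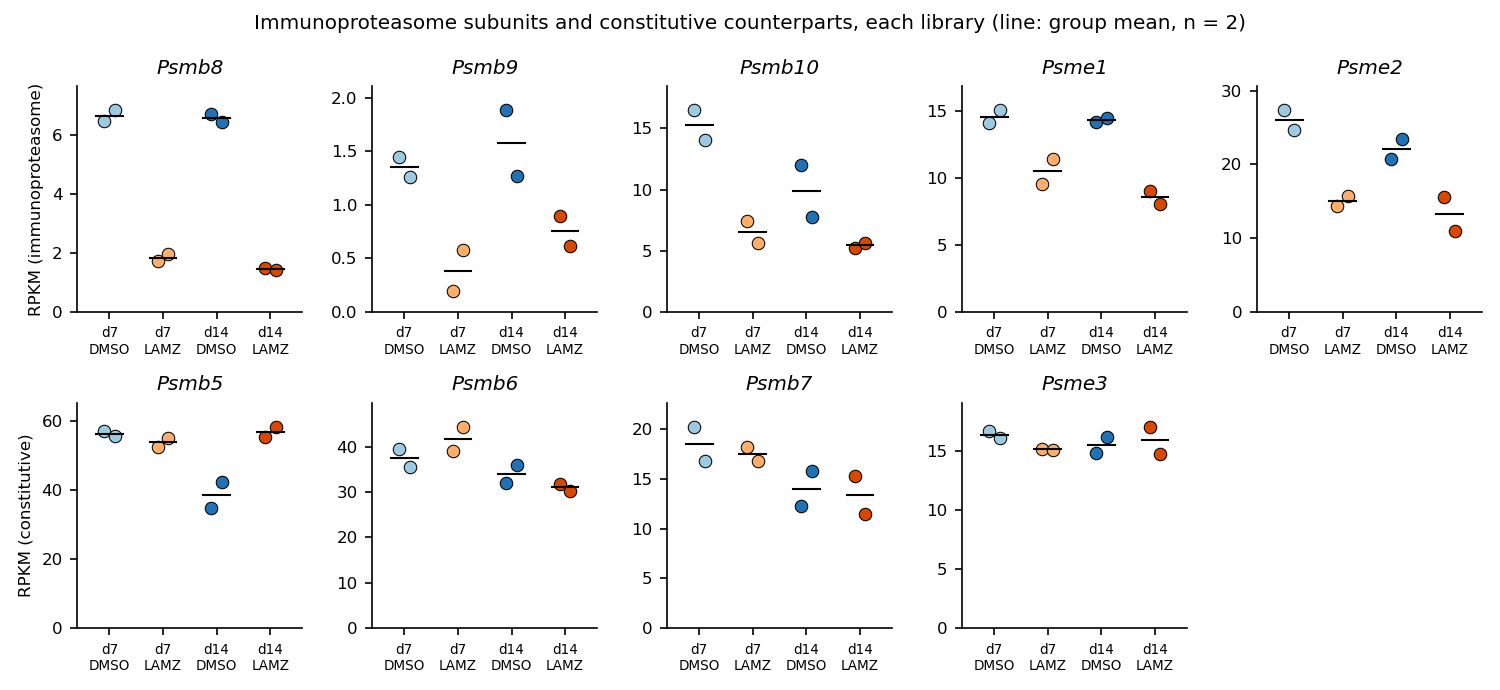
Points are the RPKM of each of the 8 libraries for the immunoproteasome members (upper panels) and for their constitutive counterparts Psmb5, Psmb6, Psmb7 and Psme3 (lower panels), by group, with a line at each group mean. In the upper panels the LAMZ points lie below the control points of the same day, as for Psmb8 with 1.71 and 1.96 against 6.49 and 6.86 at day 7, whereas Psmb5 at day 14 has its LAMZ points above, at 55.3 and 58.3 against 34.9 and 42.4.

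In the panels of RPKM by library the upper genes step down in each LAMZ group and the lower genes differ less, apart from Psmb5, whose LAMZ points stand above control at day 14. Psmb5 (ENSMUSG00000022193, chromosome 14, 54614119 to 54618022 on GRCm38) is the chymotrypsin-like active subunit. The RPKM of Psmb5 was 56.9 and 55.7 in control and 52.5 and 55.1 with LAMZ at day 7, and 34.9 and 42.4 in control and 55.3 and 58.3 with LAMZ at day 14. The 2 day 14 control libraries were the low ones, and the LAMZ libraries of both days and the day 7 controls lay together above them. At day 14 Psmb5 rose with LAMZ by a log2 fold change of 0.55 (SE 0.12, adjusted p = 0.0162), a 1.47-fold higher mean RPKM. The call was lost at 0.41 (adjusted p = 0.0771) without day 14 control replicate 1, 0.59 (adjusted p = 0.0610) without day 14 LAMZ replicate 1 and 0.51 (adjusted p = 0.0947) without day 14 LAMZ replicate 2, and after rescaling to the same sum, at 0.19 (adjusted p = 0.257). Psmb5 had adjusted p of 0.00220 to 0.257 over 20 alternatives. At day 7 its log2 fold change was -0.07 (95% interval -0.35 to 0.22), and median centring turned the sign to 0.05.

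Psmb6, the caspase-like active subunit, had an RPKM of 39.4 and 35.6 in control and 39.0 and 44.4 with LAMZ at day 7, and 31.9 and 36.04 in control and 31.9 and 30.2 with LAMZ at day 14. Control and LAMZ libraries overlapped at day 7, and at day 14 both LAMZ libraries were just below the lower control library. Its log2 fold change was 0.15 (95% interval -0.14 to 0.43) at day 7, -0.15 when all libraries had the same sum, and -0.13 (95% interval -0.41 to 0.16) at day 14, 0.07 after median centring. Rescaling to the same sum gave -0.48 (adjusted p = 0.0161) at day 14, the 1 alternative under which Psmb6 was called, with adjusted p of 0.0161 to 0.891 over 20 alternatives. Psmb7, the trypsin-like active subunit, had an RPKM of 20.2 and 16.8 in control and 18.2 and 16.8 with LAMZ at day 7, and 12.2 and 15.8 in control and 15.3 and 11.5 with LAMZ at day 14. Its groups overlapped on both days, and its annotated exons overlap Nek6 on the other strand. The log2 fold change of Psmb7 was -0.07 (95% interval -0.48 to 0.34) at day 7 and -0.06 (95% interval -0.47 to 0.35) at day 14, and its sign turned under median centring and quantile normalization on both days.

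The pairs were also compared within each library, as a ratio that multiplying a whole library by a constant cannot move. Quantile normalization can move it, and the ratios were not run under it. Psmb8 stood at 11.4% and 12.3% of the RPKM of Psmb5 in the day 7 control libraries, 3.27% and 3.57% with LAMZ at day 7, 19.3% and 15.3% in the day 14 control libraries and 2.72% and 2.44% with LAMZ at day 14. Both LAMZ groups were far below both control groups. Psmb9 stood at 3.68% and 3.54% of Psmb6, 0.494% and 1.30%, 5.90% and 3.52%, and 2.79% and 2.04% in the same order of groups. Psmb10 stood at 81.5% and 83.7% of Psmb7, 40.9% and 33.6%, 98.1% and 49.3%, and 34.2% and 49.1%. For Psmb10 the day 14 groups nearly met, since day 14 control replicate 2 and day 14 LAMZ replicate 2 differed by little.

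Averaged over both days, the log2 ratio of Psmb8 to Psmb5 was -2.27 with LAMZ relative to control (-1.80 at day 7 and -2.74 at day 14), a 4.81-fold lower ratio. The log2 ratio of Psmb9 to Psmb6 was -1.55 (-2.17 and -0.93), a 2.93-fold lower ratio. The ratios were taken from RPKM without the filter of the single-gene tests. Psmb9 rests on 3 to 37 reads, so the fold of its ratio is imprecise. That of Psmb10 to Psmb7 was -0.96 (-1.16 and -0.76), a 1.95-fold lower ratio. An exact two-sided permutation test that relabelled libraries within each day gave p = 0.0556 for each of these 3 ratios, and 0.0556 after Benjamini-Hochberg adjustment over the 3. That is the smallest p that its 36 relabelings can give, so this design cannot reach 0.05. All 3 ratios were below 0 in each of their 9 alternatives, over which they ranged from -2.35 to -1.77, from -1.90 to -0.68 and from -1.21 to -0.71.

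Shares of the summed catalytic RPKM put the 3 pairs into 1 value per library. Psmb8, Psmb9 and Psmb10 made up 17.3% and 17.0% of the RPKM of the 6 catalytic genes in day 7 control, 7.85% and 6.57% in day 7 LAMZ, 20.7% and 14.1% in day 14 control and 6.92% and 7.14% in day 14 LAMZ libraries. The means were 17.2% ± 0.218 (SD, n = 2) and 7.21% ± 0.905 (SD, n = 2) at day 7, and 17.4% ± 4.64 (SD, n = 2) and 7.03% ± 0.149 (SD, n = 2) at day 14. No LAMZ library reached the lowest control share of 14.1%. In the same way Psme1 and Psme2 made up 71.3% and 71.2% of the RPKM of Psme1, Psme2 and Psme3 in control and 61.2% and 64.2% with LAMZ at day 7, and 70.2% and 70.1% in control and 59.0% and 56.5% with LAMZ at day 14. The PA28 shares of LAMZ libraries were all below those of the control libraries, and Psme1 and Psme2 were the larger part of the 3 genes in each of them.

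**Figure D3:**
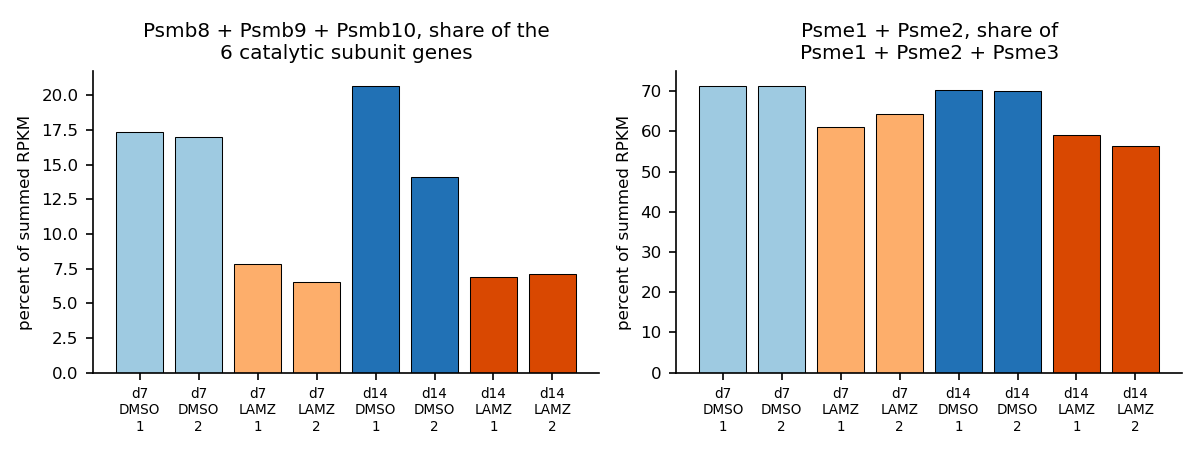
Bars show, for each of the 8 libraries, the percent of the catalytic RPKM (Psmb5 to Psmb10) that was Psmb8, Psmb9 and Psmb10, and the percent of the RPKM of Psme1, Psme2 and Psme3 that was Psme1 and Psme2. Catalytic shares are 14.1% to 20.7% in control and 6.57% to 7.85% in LAMZ libraries.

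The bars of these shares show the day 14 control pair as the widest apart, and Psmb10 was 12.0 and 7.78 RPKM in these 2 libraries. The summed RPKM of the 5 immunoproteasome members was 65.8 and 61.9 in control and 33.2 and 35.2 with LAMZ at day 7, and 55.6 and 53.4 in control and 32.2 and 26.8 with LAMZ at day 14. Summed RPKM of the 44 constitutive members was 1053 and 944 in control and 948 and 965 with LAMZ at day 7, and 769 and 869 in control and 858 and 768 with LAMZ at day 14. The first sum separated LAMZ from control on both days, whereas the second did not.

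Promoter windows were read because Psmb8, Psmb10 and Psme2 fell on both days and Psmb5 rose at day 14. A window runs from 250 bases before to 50 after the start of a gene (RefSeq, build GRCm38.p6), and 41 of the 49 members had one, among them all 5 immunoproteasome members. The windows of Psmb8, Psmb9 and Psme1 lie wholly inside the gene spans given above, which came from GENCODE M21. Positions in windows are therefore counted from the RefSeq start and not from the outer end of those spans. Both strands were searched for 4 motifs, GAAANNGAA of interferon regulatory factors (IRF), TTCNNNGAA of STAT factors, the NF-Y box CCAAT and TGACNNNGC, the core of the antioxidant response element. Of the 27025 genes with a window, 9.76% held the IRF motif, 9.55% the STAT motif, 41.1% the NF-Y box and 14.0% the antioxidant motif. The windows of Psmb8, Psmb9, Psme1 and Psmb5 are printed 5′ to 3′, with the 1 match that each held in capitals.
Psmb8: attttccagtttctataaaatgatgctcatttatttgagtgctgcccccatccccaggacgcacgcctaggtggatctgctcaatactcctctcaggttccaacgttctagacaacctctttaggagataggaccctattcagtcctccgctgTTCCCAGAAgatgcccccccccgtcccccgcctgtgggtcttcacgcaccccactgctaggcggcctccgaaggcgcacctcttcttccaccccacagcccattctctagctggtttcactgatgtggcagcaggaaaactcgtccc
Psmb9: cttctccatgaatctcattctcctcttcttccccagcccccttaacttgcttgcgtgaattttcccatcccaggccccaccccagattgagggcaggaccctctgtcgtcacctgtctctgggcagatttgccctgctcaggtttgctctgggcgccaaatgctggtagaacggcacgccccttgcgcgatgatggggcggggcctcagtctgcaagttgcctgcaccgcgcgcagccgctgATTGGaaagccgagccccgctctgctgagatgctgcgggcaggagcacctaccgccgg
Psme1: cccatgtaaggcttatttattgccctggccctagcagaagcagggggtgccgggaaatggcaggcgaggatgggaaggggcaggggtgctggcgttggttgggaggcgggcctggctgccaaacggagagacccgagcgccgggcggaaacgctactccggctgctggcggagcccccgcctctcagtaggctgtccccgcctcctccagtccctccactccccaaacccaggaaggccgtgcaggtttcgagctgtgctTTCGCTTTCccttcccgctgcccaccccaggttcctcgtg
Psmb5: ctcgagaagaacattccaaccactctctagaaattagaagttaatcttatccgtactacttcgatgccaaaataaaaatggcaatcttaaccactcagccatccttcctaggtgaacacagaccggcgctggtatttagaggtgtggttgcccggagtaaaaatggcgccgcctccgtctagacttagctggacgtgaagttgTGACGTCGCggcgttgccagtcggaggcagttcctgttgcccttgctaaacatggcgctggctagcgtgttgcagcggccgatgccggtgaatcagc

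The window of Psmb8 (chr17:34197945-34198244, plus strand) held the STAT motif at bases -97 to -89 from the RefSeq start. That of Psmb9 (chr17:34187281-34187580, minus strand) held the NF-Y box at -8 to -4, on its reverse strand, and shares most of its bases with the window of Tap1. The window of Psme1 (chr14:55578244-55578543, plus strand) held the IRF motif at 11 to 19, on its reverse strand. Psmb5 (chr14:54617946-54618245, minus strand) held the antioxidant motif at -47 to -39. Psmb6, whose log2 fold change at day 14 was -0.13, held the same motif at -9 to -1. Psme3 held the NF-Y box at -14 to -10, on its reverse strand. The windows of Psmb10 (chr8:105938343-105938642, minus strand) and Psme2 (chr14:55591052-55591351, minus strand) held none of the 4 motifs, so no motif was shared by the 5 immunoproteasome members. Among the 36 constitutive members with a window, 6 held the IRF motif (16.7%), 2 the STAT motif (5.56%), 13 the NF-Y box (36.1%) and 6 the antioxidant motif (16.7%). A match is a description of letters and not a binding site, and a window without one says only that those letters are not in it.

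In the other beta ring genes of the 20S core, levels were the highest among the subcomplexes. The median over the 7 tested genes of the mean RPKM was 38.1 in control and 41.7 with LAMZ at day 7, and 34.9 in control and 32.8 with LAMZ at day 14. Psmb1, a beta subunit without an active site and the most abundant member, had an RPKM of 92.2 and 87.2 in control and 91.2 and 84.3 with LAMZ at day 7, and 78.6 and 78.1 in control and 86.9 and 85.8 with LAMZ at day 14. Its groups overlapped at day 7, and at day 14 both LAMZ libraries were above both controls, with a log2 fold change of 0.14 (adjusted p = 0.388). Psmb1 was called as higher at day 14 under median centring alone. The log2 fold changes of the 7 genes had a median of -0.03 at day 7, from -0.14 (Psmb2) to 0.28 (Psmb3), and of -0.08 at day 14, from -0.13 (Psmb6) to 0.55 (Psmb5). Psmb5 at day 14 was the 1 call among them.

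The alpha ring frames the gate of the core. Its median RPKM was 22.0 in control and 21.7 with LAMZ at day 7, and 15.9 in control and 15.5 with LAMZ at day 14, lower at day 14 than at day 7 in both treatments. Psma6 had the highest mean of the ring, with an RPKM of 35.2 and 35.6 in control and 32.1 and 32.8 with LAMZ at day 7, and 29.1 and 32.1 in control and 38.2 and 28.4 with LAMZ at day 14. The 2 day 14 LAMZ libraries lay on either side of both controls. Psma2 had the lowest mean of the tested ring genes, with an RPKM of 14.3 and 12.7 in control and 12.7 and 14.4 with LAMZ at day 7, and 9.38 and 11.3 in control and 11.3 and 8.42 with LAMZ at day 14. Over all tested genes voom on recovered reads called 16.5% at day 7 and 30.0% at day 14. An unadjusted p under 0.05 was reached by 3505 and 4595 of the 12514. Of the 7 tested alpha genes 0 were called by limma on either day, with 0 at an unadjusted p under 0.05 and 0 by voom. Their median log2 fold change was 0.00 at day 7, from -0.17 (Psma4) to 0.33 (Psma5), and -0.04 at day 14, from -0.30 (Psma4) to 0.10 (Psma6).

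Among the 6 ATPases of the 19S cap, limma called 1 with LAMZ at day 7, against 12.8% of all tested genes, and voom 2, against 16.5%. At an unadjusted p under 0.05 were 3, against 3505 of the 12514 tested genes. At day 14 limma called 0, against 23%, and voom 1, against 30.0%. On that day 1 was at an unadjusted p under 0.05, against 4595 of the 12514. Psmc4 (ENSMUSG00000030603, chromosome 7, 28041707 to 28050101 on GRCm38), an ATPase of the unfolding ring, had an RPKM of 33.2 and 32.4 in control and 20.6 and 24.2 with LAMZ at day 7, and 21.1 and 26.1 in control and 22.8 and 22.7 with LAMZ at day 14. Its 2 day 7 control libraries were above all 6 others. Psmc4 fell at day 7 by a log2 fold change of -0.54 (SE 0.14, adjusted p = 0.0408), a 1.47-fold lower mean RPKM. That call was lost under 11 of 20 alternatives. It was lost at -0.52 (adjusted p = 0.124) without day 7 control replicate 1, -0.55 (adjusted p = 0.0972) without day 7 control replicate 2, -0.42 (adjusted p = 0.228) without day 7 LAMZ replicate 1, -0.65 (adjusted p = 0.0807) without day 7 LAMZ replicate 2, -0.54 (adjusted p = 0.0693) without day 14 LAMZ replicate 1 and -0.54 (adjusted p = 0.0693) without day 14 LAMZ replicate 2. Psmc4 was also lost with no filter (adjusted p = 0.0834), under median centring (-0.42, adjusted p = 0.0521), with the 4 libraries compared alone (adjusted p = 0.0810) and without a mean-variance trend (adjusted p = 0.0595). Adjusted p of Psmc4 was 0.00571 to 0.228 over 20 alternatives. At day 14 its log2 fold change was -0.04 (adjusted p = 0.848) and the groups overlapped.

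Psmc5, the most abundant ATPase on average, had an RPKM of 53.5 and 52.0 in control and 38.2 and 35.9 with LAMZ at day 7, and 36.2 and 45.1 in control and 39.2 and 30.9 with LAMZ at day 14. The day 7 controls stood apart above the LAMZ libraries of that day, whereas the day 14 groups overlapped. Its log2 fold change at day 7 was -0.50 (adjusted p = 0.0739), which did not pass. Psmc5 was called as lower at day 7 under quantile normalization, after rescaling to the same sum and with voom. Psmc2, the least abundant, had an RPKM of 11.4 and 10.8 in control and 8.39 and 9.58 with LAMZ at day 7, and 9.07 and 8.84 in control and 10.0 and 8.997 with LAMZ at day 14. Here too the day 7 LAMZ libraries lay below the controls. Psmc3, whose annotated exons overlap Slc39a13 on the other strand, had an RPKM of 55.3 and 44.6 in control and 40.9 and 40.3 with LAMZ at day 7, and 35.9 and 37.4 in control and 28.7 and 25.8 with LAMZ at day 14. LAMZ libraries of Psmc3 were below control libraries on each day, with log2 fold changes of -0.28 (adjusted p = 0.207) and -0.41 (adjusted p = 0.0567). Psmc3 was called as lower at day 14 with a mean RPKM of at least 5, quantile normalization, the same sum, voom or leaving out either day 7 control library. The median log2 fold change of the 6 ATPases was -0.28 at day 7 and -0.04 at day 14.

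The 11 non-ATPase subunits of the 19S cap include scaffolds, ubiquitin receptors and an enzyme that removes ubiquitin. Psmd2, a scaffold of the base that binds ubiquitin-like proteins and the most abundant of them on average, had an RPKM of 43.3 and 40.7 in control and 39.3 and 36.3 with LAMZ at day 7, and 29.9 and 32.8 in control and 28.7 and 24.1 with LAMZ at day 14. LAMZ libraries were below control libraries on both days, and the log2 fold changes were -0.15 (adjusted p = 0.495) and -0.24 (adjusted p = 0.203). Psmd14, the enzyme that removes the ubiquitin chain, had the lowest mean of the subcomplex, with an RPKM of 9.12 and 9.21 in control and 8.73 and 7.96 with LAMZ at day 7, and 6.41 and 8.79 in control and 7.48 and 5.88 with LAMZ at day 14. Its LAMZ libraries were just below control at day 7 and overlapped control at day 14. Psmd4, a ubiquitin receptor described here because its values drew attention after they were seen, had an RPKM of 26.9 and 21.2 in control and 17.1 and 19.5 with LAMZ at day 7, and 15.5 and 19.5 in control and 22.1 and 21.5 with LAMZ at day 14. The LAMZ libraries of Psmd4 were lower than control at day 7 (-0.37, adjusted p = 0.178) and higher at day 14 (0.31, adjusted p = 0.200). Psmd4 was called as lower at day 7 under the same sum and as higher at day 14 under median centring. By limma 0 of the 11 were called on either day, against 12.8% and 23% of all tested genes. Voom called 0 on each day, against 16.5% and 30.0%. On each day 1 was at an unadjusted p under 0.05, against 3505 and 4595 of the 12514 tested genes. The medians of the 11 were -0.12 and -0.14.

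Assembly chaperones had lower median levels than the 20S rings, the ATPases and the non-ATPase subunits in each group. Of the base chaperones, Psmd10 (gankyrin) had the highest mean, with an RPKM of 5.60 and 6.68 in control and 7.34 and 4.70 with LAMZ at day 7, and 4.82 and 6.32 in control and 4.44 and 4.32 with LAMZ at day 14. Psmd5 had the lowest mean, with an RPKM of 4.67 and 3.86 in control and 3.02 and 3.98 with LAMZ at day 7, and 3.62 and 4.12 in control and 3.22 and 2.91 with LAMZ at day 14. At day 14 all 3 base chaperones, Psmd9 among them, had LAMZ libraries below control libraries, as 44.2% of all tested genes had, with log2 fold changes from -0.34 (Psmd9) to -0.26 (Psmd5). At day 7 the groups of all 3 overlapped. Psmg2, a chaperone of the alpha ring, had an RPKM of 9.27 and 10.1 in control and 7.97 and 10.9 with LAMZ at day 7, and 7.21 and 10.7 in control and 12.3 and 9.48 with LAMZ at day 14. Its partner Psmg1 had an RPKM of 10.9 and 9.24 in control and 9.42 and 9.43 with LAMZ at day 7, and 6.51 and 7.08 in control and 6.76 and 7.16 with LAMZ at day 14. Psmg1 stood lower in all day 14 libraries than in all day 7 libraries, and treatment groups of both genes overlapped on both days. Of the 4 chaperones of the core and 3 of the base, limma called 0 on either day, with 0 at an unadjusted p under 0.05 and 0 by voom. The shares of all tested genes are those given with the ATPases.

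Other activators and the inhibitor gave no call by limma on either day, with 0 of 3 at an unadjusted p under 0.05 and 0 by voom. The shares of all tested genes are again those given with the ATPases. Psme3, which forms the nuclear PA28 gamma activator and is the constitutive counterpart of Psme1 and Psme2, had an RPKM of 16.6 and 16.1 in control and 15.2 and 15.1 with LAMZ at day 7, and 14.8 and 16.1 in control and 17.0 and 14.7 with LAMZ at day 14. Its LAMZ libraries were just below control at day 7 and overlapped control at day 14. The log2 fold change of Psme3 was -0.10 (95% interval -0.37 to 0.17) at day 7 and 0.03 (95% interval -0.24 to 0.30) at day 14. Its sign turned to 0.01 at day 7 under median centring and to -0.31 at day 14 when all libraries had the same sum. At day 7 Psme3 was called when all libraries had the same sum, at -0.39 (adjusted p = 0.0470), with adjusted p of 0.0470 to 0.963 over 20 alternatives. At day 14 its sign also turned to -0.02 without day 14 control replicate 1 and to -0.07 without day 14 LAMZ replicate 1. Psmf1, the inhibitor PI31, had an RPKM of 4.41 and 3.27 in control and 2.37 and 3.13 with LAMZ at day 7, and 3.30 and 3.43 in control and 3.06 and 2.99 with LAMZ at day 14. The controls were above the LAMZ libraries on both days, by little at day 14. Psme2b had an RPKM of 0.634 and 0 in control and 0 and 0 with LAMZ at day 7, and 0.445 and 2.38 in control and 1.02 and 1.96 with LAMZ at day 14, from 0 to 9 reads, so its reads were too few to compare.

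Whether the LAMZ effect differed between the days was tested as the difference of the 2 effects. By limma 0 of the 47 tested members were called, against 0.623% of all tested genes. Voom called 0, against 3.28% of all tested genes. At an unadjusted p under 0.05 were 3 members, where 2061 of the 12514 tested genes were. Those 3 were Psmb5 at 0.62 (adjusted p = 0.159), Psmd4 at 0.68 (adjusted p = 0.197) and Psmc4 at 0.49 (adjusted p = 0.266). For the immunoproteasome members the differences were -0.19 (Psmb8), 0.23 (Psmb9), 0.39 (Psmb10), -0.24 (Psme1) and 0.05 (Psme2), some above and some below 0. A call on 1 day alone, as for Psme1, Psmb5 and Psmc4, is therefore not shown to be a difference between the days.

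Between day 7 and day 14 most constitutive transcripts were lower at the later day. In control cells 39 of the 42 tested constitutive members had a log2 fold change below 0, or 92.9%, against 55.8% of all tested genes. Their median was -0.26 in control cells, where the median of all tested genes was -0.05. In LAMZ-treated cells 31 of 42 were below 0, or 73.8%, against 61.4% of all tested genes, with medians of -0.32 and -0.11. Relative to the median of all tested genes the constitutive median was -0.22 in both. It was -0.14 in control without day 14 control replicate 1, and -0.08 in LAMZ-treated cells without day 14 LAMZ replicate 2. These differences from all tested genes kept their sign under every scaling tried, from -0.19 to -0.22 in control and from -0.17 to -0.22 in LAMZ-treated cells. The decrease itself did not hold as well, since rescaling to the same sum moved the median of all tested genes to 0.16 in control and 0.03 in LAMZ-treated cells, and the constitutive median to -0.03 and -0.14. Groups of 24 of the 42 constitutive members did not overlap and were lower at day 14 in control cells, where 28.5% of all tested genes did so, and 24 of 42 in LAMZ-treated cells, where 41.4% did.

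Single genes passed this test over time in LAMZ-treated cells and not in control cells. In control cells limma called 0 of the 47 members, against 4.86% of all tested genes, with 14 at an unadjusted p under 0.05, where 2727 of the 12514 tested genes were. By voom 4 were called, all lower at day 14, against 8.87% of all tested genes and 4.67% as lower. By limma the nearest was Psmb5 at -0.54 (adjusted p = 0.0521). Psmb5 was called with a mean RPKM of at least 5, under median centring, under quantile normalization and with voom. In LAMZ-treated cells limma called 6 of the 47 members, all lower at day 14, against 14.4% of all tested genes called and 9.26% as lower. The share of members called was near this background, below the first value and above the second. With voom on recovered reads 15 members were called, 13 lower and 2 higher, against 22.6% of all tested genes and 15.7% as lower. The higher ones were Psmd8 and Psme2b, and Psme2b had to be higher at day 14, since it passed the filter through libraries of that day alone. After rescaling to the same sum 1 was called, Psmd8 as higher, against 12.2%. The comparisons in control and in LAMZ-treated cells use the same libraries as the comparisons at each day, and the test of the difference between the days is the same for both, so the 6 and the 0 are not shown to differ.

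**Figure D4:**
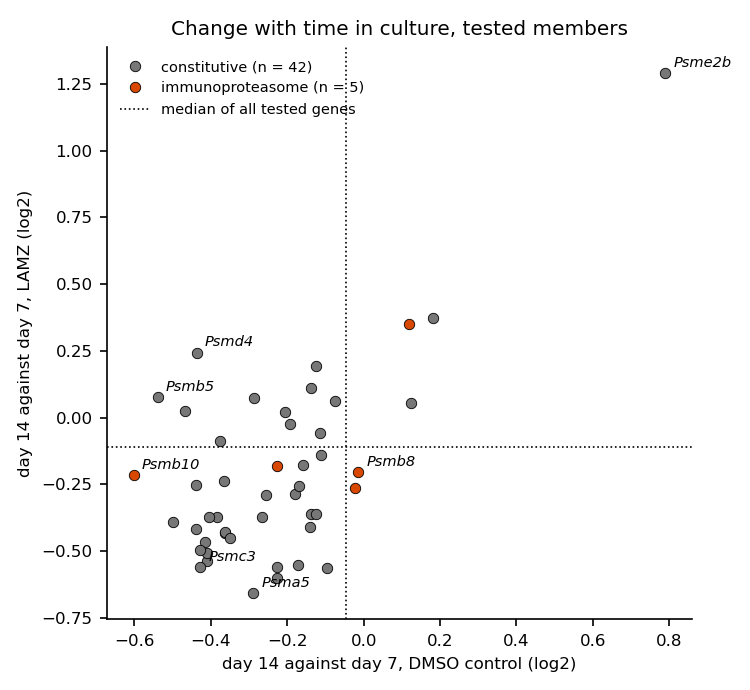
Each point is a tested member, with its log2 fold change of log2(RPKM + 1) from day 7 to day 14 in control cells on the x axis and in LAMZ-treated cells on the y axis, and dotted lines mark the medians of all tested genes. Most members lie below both medians of -0.05 and -0.11, while Psmb5 is at -0.54 on the x axis and 0.08 on the y axis.

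In the scatter of changes over time the members gather at the lower left. Psmb5 lies apart, lower at day 14 in control cells and near 0 with LAMZ. Psmb8 hardly moved over time in its values, at -0.01 in control and -0.20 in LAMZ-treated cells, neither of them called. By subcomplex, the ATPases had a median change of -0.37 in control cells and -0.16 with LAMZ, with -0.36 and -0.43 for the alpha ring, -0.19 and -0.36 for the beta ring and -0.27 and -0.37 for the non-ATPase subunits.

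Psma5, an alpha subunit whose annotated exons overlap 1700010K24Rik on the other strand, had an RPKM of 33.9 and 29.9 in control and 41.5 and 38.9 with LAMZ at day 7, and 22.3 and 30.1 in control and 28.3 and 22.3 with LAMZ at day 14. Its day 7 LAMZ libraries were the highest of the 8. In LAMZ-treated cells it fell over time by a log2 fold change of -0.66 (SE 0.17, adjusted p = 0.0433). The call was lost at -0.61 (adjusted p = 0.178) without day 7 LAMZ replicate 1, -0.70 (adjusted p = 0.146) without day 7 LAMZ replicate 2, -0.82 (adjusted p = 0.0630) without day 14 LAMZ replicate 1 and -0.49 (adjusted p = 0.229) without day 14 LAMZ replicate 2, and also at -0.66 (adjusted p = 0.0502) without day 7 control replicate 1 and -0.66 (adjusted p = 0.0506) without day 7 control replicate 2. Psma5 was also lost with no filter (adjusted p = 0.108), after rescaling to the same sum (-0.46, adjusted p = 0.144), with the 4 libraries compared alone (adjusted p = 0.0591) and without a mean-variance trend (adjusted p = 0.0609). Adjusted p of Psma5 was 0.00783 to 0.229 over 19 alternatives. Psmc3 fell by -0.56 (SE 0.13, adjusted p = 0.0282), with its day 14 LAMZ libraries the lowest of the 8. It was lost at -0.55 (adjusted p = 0.130) without day 7 LAMZ replicate 1, -0.57 (adjusted p = 0.132) without day 7 LAMZ replicate 2, -0.63 (adjusted p = 0.0753) without day 14 LAMZ replicate 1 and -0.49 (adjusted p = 0.163) without day 14 LAMZ replicate 2. Psmc3 was also lost with no filter (adjusted p = 0.0583) and after rescaling to the same sum (-0.36, adjusted p = 0.105). Adjusted p of Psmc3 was 0.00498 to 0.163 over 19 alternatives.

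Psmd1, a scaffold of the 19S base whose annotated exons overlap Htr2b on the other strand and Gm21972 on the same strand, had an RPKM of 10.0 and 12.7 in control and 11.2 and 10.9 with LAMZ at day 7, and 8.77 and 10.3 in control and 7.24 and 7.12 with LAMZ at day 14. Its day 14 LAMZ libraries were the lowest of the 8. It fell over time with LAMZ by -0.56 (SE 0.14, adjusted p = 0.0353). The call was lost at -0.54 (adjusted p = 0.148) without day 7 LAMZ replicate 1, -0.58 (adjusted p = 0.142) without day 7 LAMZ replicate 2, -0.57 (adjusted p = 0.120) without day 14 LAMZ replicate 1 and -0.55 (adjusted p = 0.153) without day 14 LAMZ replicate 2. Psmd1 was also lost with no filter (adjusted p = 0.0812), after rescaling to the same sum (-0.37, adjusted p = 0.181), under median centring (-0.46, adjusted p = 0.0667), under quantile normalization (-0.45, adjusted p = 0.0775) and without a mean-variance trend (adjusted p = 0.0513). Adjusted p of Psmd1 was 0.00821 to 0.181 over 19 alternatives. Psmd2 fell by -0.51 (SE 0.13, adjusted p = 0.0346), and its day 14 LAMZ libraries were likewise the lowest of the 8. Psmd2 is described as a call here after its values were seen. It was lost at -0.45 (adjusted p = 0.169) without day 7 LAMZ replicate 1, -0.56 (adjusted p = 0.117) without day 7 LAMZ replicate 2, -0.63 (adjusted p = 0.0553) without day 14 LAMZ replicate 1 and -0.39 (adjusted p = 0.198) without day 14 LAMZ replicate 2. Psmd2 was also lost with no filter (adjusted p = 0.0640), after rescaling to the same sum (-0.31, adjusted p = 0.176), with the 4 libraries compared alone (adjusted p = 0.0691) and without a mean-variance trend (adjusted p = 0.0534). Adjusted p of Psmd2 was 0.00688 to 0.198 over 19 alternatives.

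The other two calls, Psma4 and Psmd9, are named because they passed, after their values were seen. Psma4, an alpha subunit whose annotated exons overlap AY074887 on the other strand, had an RPKM of 26.9 and 24.9 in control and 20.2 and 25.9 with LAMZ at day 7, and 18.5 and 19.9 in control and 16.7 and 14.3 with LAMZ at day 14. It fell by -0.54 (SE 0.15, adjusted p = 0.0478) and was called under 3 of 19 alternatives. Leaving out any 1 library lost the call, at -0.54 (adjusted p = 0.0564) without day 7 control replicate 1, -0.54 (adjusted p = 0.0569) without day 7 control replicate 2, -0.71 (adjusted p = 0.0576) without day 7 LAMZ replicate 1, -0.37 (adjusted p = 0.242) without day 7 LAMZ replicate 2, -0.54 (adjusted p = 0.0664) without day 14 control replicate 1, -0.54 (adjusted p = 0.0667) without day 14 control replicate 2, -0.65 (adjusted p = 0.0868) without day 14 LAMZ replicate 1 and -0.43 (adjusted p = 0.239) without day 14 LAMZ replicate 2. Psma4 was also lost with a pseudocount of 5 (-0.45, adjusted p = 0.0501), with no filter (adjusted p = 0.105), after rescaling to the same sum (-0.35, adjusted p = 0.170), under median centring (-0.44, adjusted p = 0.0685), under quantile normalization (-0.45, adjusted p = 0.0512), with the 4 libraries compared alone (adjusted p = 0.104) and without a mean-variance trend (adjusted p = 0.0673). Adjusted p of Psma4 was 0.0140 to 0.242 over 19 alternatives. Psmd9, a base chaperone whose annotated exons overlap Gm26745 on the other strand, had an RPKM of 4.68 and 4.31 in control and 4.43 and 4.86 with LAMZ at day 7, and 3.67 and 4.08 in control and 3.38 and 2.38 with LAMZ at day 14. It fell by -0.55 (SE 0.15, adjusted p = 0.0478) and was called under 2 of 18 alternatives. Its call was lost when any 1 library other than day 14 LAMZ replicate 1 was left out, at -0.55 (adjusted p = 0.0587) without day 7 control replicate 1, -0.55 (adjusted p = 0.0592) without day 7 control replicate 2, -0.61 (adjusted p = 0.132) without day 7 LAMZ replicate 1, -0.50 (adjusted p = 0.208) without day 7 LAMZ replicate 2, -0.55 (adjusted p = 0.0660) without day 14 control replicate 1, -0.55 (adjusted p = 0.0663) without day 14 control replicate 2 and -0.36 (adjusted p = 0.244) without day 14 LAMZ replicate 2. Psmd9 was also lost with a pseudocount of 0.1 (-0.69, adjusted p = 0.0503), with a pseudocount of 5 (-0.29, adjusted p = 0.0514), with no filter (adjusted p = 0.132), after rescaling to the same sum (-0.39, adjusted p = 0.150), under median centring (-0.45, adjusted p = 0.0721), under quantile normalization (-0.43, adjusted p = 0.0788), with the 4 libraries compared alone (adjusted p = 0.113) and without a mean-variance trend (adjusted p = 0.0610). Adjusted p of Psmd9 was 0.0206 to 0.244 over 18 alternatives.

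Partners and regulators of the proteasome were followed as a list of 24 genes, all tested. By limma 3 of the 24 were called as lower with LAMZ at day 7 and 0 as higher, where 12.8% of all tested genes were called and 8.49% as lower. At day 14 1 of the 24 was called as higher and 0 as lower, where 6.96% of all tested genes were called as higher and 16% as lower. Ubb, a polyubiquitin gene and the most abundant of the list, had an RPKM of 628 and 621 in control and 413 and 439 with LAMZ at day 7, and 555 and 574 in control and 575 and 551 with LAMZ at day 14. The day 7 LAMZ libraries were the low ones, and it fell by -0.55 (SE 0.11, adjusted p = 0.0183), a call lost at -0.51 (adjusted p = 0.131) without day 7 LAMZ replicate 1 and -0.60 (adjusted p = 0.0785) without day 7 LAMZ replicate 2. Ubb at day 7 was also lost with no filter (adjusted p = 0.111) and with the 4 libraries compared alone (adjusted p = 0.0828). Adjusted p of Ubb was 0.00111 to 0.131 over 20 alternatives. Zfand2a, which binds the 19S cap under stress, had an RPKM of 6.54 and 4.75 in control and 2.62 and 2.93 with LAMZ at day 7, and 5.25 and 7.34 in control and 4.58 and 4.99 with LAMZ at day 14. It fell at day 7 by -0.80 (SE 0.18, adjusted p = 0.0270), a call lost at -0.61 (adjusted p = 0.120) without day 7 control replicate 1, -0.74 (adjusted p = 0.151) without day 7 LAMZ replicate 1 and -0.86 (adjusted p = 0.0954) without day 7 LAMZ replicate 2. Zfand2a was also lost with no filter (adjusted p = 0.0868) and with the 4 libraries compared alone (adjusted p = 0.0785). Adjusted p of Zfand2a was 0.00622 to 0.151 over 19 alternatives. Adrm1, a ubiquitin receptor of the cap, had an RPKM of 5.75 and 5.88 in control and 3.55 and 3.91 with LAMZ at day 7, and 4.28 and 5.14 in control and 4.61 and 4.76 with LAMZ at day 14. Adrm1 fell at day 7 by -0.53 (SE 0.12, adjusted p = 0.0294), a call lost at -0.54 (adjusted p = 0.0895) without day 7 control replicate 1, -0.51 (adjusted p = 0.0919) without day 7 control replicate 2, -0.47 (adjusted p = 0.168) without day 7 LAMZ replicate 1, -0.58 (adjusted p = 0.0928) without day 7 LAMZ replicate 2, -0.53 (adjusted p = 0.0533) without day 14 LAMZ replicate 1 and -0.53 (adjusted p = 0.0532) without day 14 LAMZ replicate 2. Adrm1 was also lost with no filter (adjusted p = 0.0761), under quantile normalization (-0.41, adjusted p = 0.0540) and with the 4 libraries compared alone (adjusted p = 0.0810). Adjusted p of Adrm1 was 0.00591 to 0.168 over 19 alternatives.

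Nfe2l1 and Nfe2l2, transcription factors known to act on proteasome genes and on the antioxidant response, are named after their values were seen. The RPKM of Nfe2l1 was 34.1 and 32.2 in control and 26.8 and 28.1 with LAMZ at day 7, and 43.7 and 44.1 in control and 59.97 and 52.6 with LAMZ at day 14. That of Nfe2l2 was 10.8 and 10.4 in control and 9.70 and 8.90 with LAMZ at day 7, and 13.3 and 15.6 in control and 18.7 and 22.9 with LAMZ at day 14. Both stood highest in the day 14 LAMZ libraries, and over time with LAMZ they rose by 1.01 (SE 0.11, adjusted p = 0.00182) and 1.08 (SE 0.14, adjusted p = 0.00297), under all 19 alternatives. At day 14 Nfe2l2 rose with LAMZ by 0.50 (SE 0.14, adjusted p = 0.0353), which was lost at 0.39 (adjusted p = 0.153) without day 14 control replicate 1, 0.60 (adjusted p = 0.0569) without day 14 control replicate 2, 0.36 (adjusted p = 0.196) without day 14 LAMZ replicate 2, 0.50 (adjusted p = 0.0594) without day 7 LAMZ replicate 1 and 0.50 (adjusted p = 0.0592) without day 7 LAMZ replicate 2. Nfe2l2 was called under 10 of 20 alternatives, and was also lost with no filter (adjusted p = 0.0686), after rescaling to the same sum (0.15, adjusted p = 0.412), with the 4 libraries compared alone (adjusted p = 0.0807) and without a mean-variance trend (adjusted p = 0.0504). Adjusted p of Nfe2l2 was 0.00750 to 0.412 over 20 alternatives.

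Genes of MHC class I antigen processing were followed as a further list, and 10 of the 11 on the list were tested. With LAMZ 6 were called as lower and 0 as higher at day 7, where 8.49% of all tested genes were called as lower and 4.35% as higher. At day 14 5 were called as lower and 1 as higher, where 16% were called as lower and 6.96% as higher. The median log2 fold changes of the list were -0.74 and -0.54. H2-D1, a class I heavy chain, had an RPKM of 54.1 and 38.0 in control and 16.7 and 17.6 with LAMZ at day 7, and 103 and 72.4 in control and 29.5 and 30.7 with LAMZ at day 14. It fell by -1.35 (SE 0.20, adjusted p = 0.00523) and -1.49 (SE 0.20, adjusted p = 0.00197), and the day 7 call was lost at -1.32 (adjusted p = 0.0505) without day 7 LAMZ replicate 1, with adjusted p of 3.54e-05 to 0.0505 over 20 alternatives. Tap2, a subunit of the peptide transporter, had an RPKM of 7.86 and 6.80 in control and 3.41 and 2.74 with LAMZ at day 7, and 7.29 and 9.59 in control and 4.67 and 6.01 with LAMZ at day 14. It fell by -1.03 (SE 0.17, adjusted p = 0.00837) at day 7, lost at -0.91 (adjusted p = 0.0647) without day 7 LAMZ replicate 2. Tap2 had adjusted p of 9.63e-04 to 0.0647 over 20 alternatives. At day 14 it fell by -0.57 (SE 0.17, adjusted p = 0.0497), a call lost under 15 of 20 alternatives and without any 1 of the 8 libraries, at -0.57 (adjusted p = 0.0572) without day 7 control replicate 1, -0.57 (adjusted p = 0.0576) without day 7 control replicate 2, -0.57 (adjusted p = 0.0691) without day 7 LAMZ replicate 1, -0.57 (adjusted p = 0.0688) without day 7 LAMZ replicate 2, -0.75 (adjusted p = 0.0504) without day 14 control replicate 1, -0.39 (adjusted p = 0.242) without day 14 control replicate 2, -0.42 (adjusted p = 0.235) without day 14 LAMZ replicate 1 and -0.72 (adjusted p = 0.0706) without day 14 LAMZ replicate 2. Tap2 was also lost with a pseudocount of 0.1 (-0.65, adjusted p = 0.0569), with no filter (adjusted p = 0.124), under median centring (-0.38, adjusted p = 0.134), under quantile normalization (-0.42, adjusted p = 0.108), with the 4 libraries compared alone (adjusted p = 0.0919) and without a mean-variance trend (adjusted p = 0.0643). Adjusted p of Tap2 was 0.00563 to 0.242 over 20 alternatives. Tapbpl, a relative of tapasin, had an RPKM of 3.95 and 3.44 in control and 1.69 and 1.14 with LAMZ at day 7, and 2.85 and 2.73 in control and 1.68 and 2.70 with LAMZ at day 14. It fell at day 7 by -0.96 (SE 0.19, adjusted p = 0.0164), lost at -0.88 (adjusted p = 0.0792) without day 7 control replicate 1 and -0.80 (adjusted p = 0.102) without day 7 LAMZ replicate 2. Tapbpl was also lost with no filter (adjusted p = 0.0626) and with the 4 libraries compared alone (adjusted p = 0.0575). Adjusted p of Tapbpl was 0.00475 to 0.102 over 19 alternatives. Calr, a chaperone of the endoplasmic reticulum and the most abundant of the list on average, had an RPKM of 317 and 301 in control and 359 and 391 with LAMZ at day 7, and 206 and 231 in control and 411 and 336 with LAMZ at day 14 and rose at day 14 by 0.77 (SE 0.14, adjusted p = 0.00656). That call was lost at 0.62 (adjusted p = 0.0516) without day 14 LAMZ replicate 1, with adjusted p of 6.89e-05 to 0.0516 over 20 alternatives.

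Interferon response genes were tested for 13 of the 15 on the list. Of these, 4 (Ifit1, Ifit3, Usp18 and Oasl2) needed control libraries to pass, which favoured higher values there. Day 7 control replicate 2 was above replicate 1 in each of the genes named next. Isg15 had an RPKM of 10.5 and 60.7 in control and 2.48 and 1.02 with LAMZ at day 7, and 28.3 and 10.5 in control and 9.53 and 9.21 with LAMZ at day 14, and it fell at day 7 by -3.33 (SE 0.73, adjusted p = 0.0235). That call was lost at -2.12 (adjusted p = 0.0549) without day 7 control replicate 2, -3.73 (adjusted p = 0.0866) without day 7 LAMZ replicate 1 and -2.94 (adjusted p = 0.132) without day 7 LAMZ replicate 2. Isg15 was also lost with a pseudocount of 5 (-2.25, adjusted p = 0.0501), with no filter (adjusted p = 0.0896) and with the 4 libraries compared alone (adjusted p = 0.1004). Adjusted p of Isg15 was 0.00504 to 0.132 over 20 alternatives. Ifit3 had an RPKM of 3.34 and 15.9 in control and 0.403 and 0.330 with LAMZ at day 7, and 18.9 and 12.4 in control and 0.983 and 1.76 with LAMZ at day 14. Its LAMZ libraries were the low ones on both days. Oasl2 had an RPKM of 1.64 and 8.86 in control and 0.121 and 0.247 with LAMZ at day 7, and 5.23 and 3.42 in control and 0.707 and 1.27 with LAMZ at day 14. Its LAMZ libraries were low as well, and the tests of both genes are not used, since they needed control libraries to pass. Bst2, the most abundant of the list on average, had an RPKM of 24.7 and 42.8 in control and 8.57 and 8.50 with LAMZ at day 7, and 49.5 and 25.5 in control and 22.6 and 20.6 with LAMZ at day 14 and fell at day 7 by -1.81 (SE 0.32, adjusted p = 0.0103). The call of Bst2 was lost at -1.82 (adjusted p = 0.0731) without day 7 LAMZ replicate 1 and -1.81 (adjusted p = 0.0632) without day 7 LAMZ replicate 2, with adjusted p of 0.00128 to 0.0731 over 20 alternatives.

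Macrophage and leukocyte markers were tested for all 18 genes of their list. Of these, 17 needed control libraries to pass the filter and so had to be higher there. Lyz2 alone would have passed on LAMZ libraries, and no count of calls is given for LAMZ against control. Their summed RPKM was 480.4 and 634 in control and 9.40 and 7.73 with LAMZ at day 7, and 1207 and 1222 in control and 7.49 and 8.11 with LAMZ at day 14, with Lyz2 the most abundant in each library. In all 4 LAMZ libraries 6 of the 18 were at 0 (C1qa, C1qb, C1qc, Tyrobp, Laptm5 and Ctss), and 0 of the 18 were at 0 in any control library. Lyz2 fell by -5.45 (SE 0.17, adjusted p = 4.34e-06) and -6.80 (SE 0.17, adjusted p = 7.60e-07). These cells are known to express the immunoproteasome, and Lyz2 fell in the same libraries as Psmb8, Psmb10 and Psme2. The part of macrophages and of interferon response in the lower immunoproteasome RPKM was not tested.

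**Figure D5:**
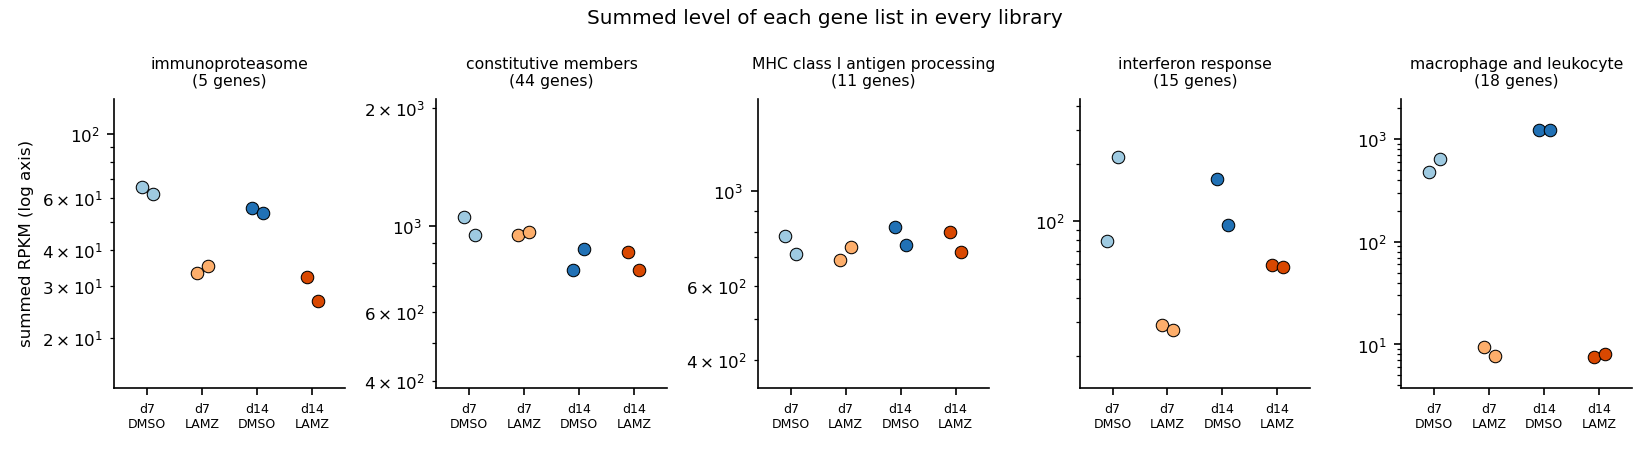
Points are the summed RPKM of each library, on a log axis, for the immunoproteasome members, the constitutive members, the MHC class I, interferon response and macrophage lists. Macrophage sums fall from 480.4 to 1222 in control to 7.49 to 9.40 in LAMZ libraries, while constitutive sums stay between 768 and 1053.

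The sums by list show the macrophage genes as the widest gap between treatments, the immunoproteasome as a narrower one, and the constitutive members without a gap. The summed RPKM of the MHC class I list was 784 and 712 in control and 688 and 738 with LAMZ at day 7, and 825 and 749 in control and 802 and 719 with LAMZ at day 14, with Calr the most abundant in 7 of 8 libraries and B2m in day 14 control replicate 1. Of the 10 osteoblast lineage genes 7 were called as higher with LAMZ on each day, where 4.35% (day 7) and 6.96% (day 14) of all tested genes were. None of the 10 was called as lower, although Col1a2 was at -0.06 at day 7 and Bglap at -0.14 at day 14. Their summed RPKM was 7180.3 and 8843 in control and 10928 and 10357 with LAMZ at day 7, and 10740.3 and 10269 in control and 16511 and 18310.1 with LAMZ at day 14. Col1a1 was the most abundant of them in every library, and 0 of the 10 were at 0. Spp1, a bone matrix protein, had an RPKM of 84.0 and 204 in control and 1380.0 and 1114 with LAMZ at day 7, and 266 and 361 in control and 2476 and 2472 with LAMZ at day 14. It rose by 3.23 (SE 0.36, adjusted p = 0.00139) and 2.99 (SE 0.36, adjusted p = 0.00108). Dmp1, a protein of osteocytes, had an RPKM of 5.57 and 8.25 in control and 85.5 and 86.2 with LAMZ at day 7, and 19.9 and 18.97 in control and 139 and 170.1 with LAMZ at day 14. Dmp1 rose by 3.48 (SE 0.18, adjusted p = 5.49e-05) and 2.92 (SE 0.18, adjusted p = 4.00e-05). Ibsp, bone sialoprotein, had an RPKM of 52.3 and 66.7 in control and 167 and 166 with LAMZ at day 7, and 66.2 and 63.4 in control and 393 and 373 with LAMZ at day 14. Ibsp rose by 1.48 (SE 0.14, adjusted p = 5.88e-04) and 2.54 (SE 0.14, adjusted p = 2.39e-05), and all 3 genes were called under each of 20 alternatives. Of 5 endothelial markers 1 passed the filter, Tek, with an RPKM of 1.86 and 1.10 in control and 0.149 and 0.0815 with LAMZ at day 7, and 1.42 and 1.41 in control and 0.218 and 0.348 with LAMZ at day 14. It passed through control libraries alone and so had to be higher there, and its test is not used. The endothelial sums were 2.82 and 1.52 in control and 0.854 and 0.79997 with LAMZ at day 7, and 2.73 and 2.61 in control and 0.753 and 0.767 with LAMZ at day 14. Tek was the largest part of each control sum. At day 7 mean RPKM was 0.0922 in control and 0.111 with LAMZ for Pecam1, 0.0734 and 0.0944 for Kdr, and 0.522 and 0.484 for Cdh5. At day 14 Pecam1, Kdr and Cdh5 were lower with LAMZ, Cdh5 at 0.969 in control and 0.285 with LAMZ. None of the 5 lymphocyte markers passed the filter, their sums were 0.224 and 0.0794 in control and 0.225 and 0.234 with LAMZ at day 7, and 1.36 and 0.285 in control and 0.167 and 0.123 with LAMZ at day 14, Cd79a was the most abundant on average and Nkg7 was at 0 in all 8 libraries. The part of these cell types in the proteasome values was not tested.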

How the data were processed

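RPKM values deposited by the authors for 8 libraries (2 in each of 4 groups) were used. The submitters' processing notes name build mm10. The study's methods name an Ion Proton and CLC Genomics Workbench, whose version is not given in the sources used here. The column of day 7 LAMZ replicate 1 is headed differently from the others (V1), and it was taken as LAMZ by its sample label, and its macrophage genes were as low as in the other LAMZ libraries. In each file 4 entries with duplicated date-like symbols were dropped. Gene positions came from GENCODE M21 on GRCm38 and promoters from RefSeq. The lengths used equalled those of GENCODE M21 for 32 of the 49 members and differed for the others, Psmb8, Psmb9 and Psmb5 among them. Mapped reads per library were recovered as the number that turns low values of single-exon genes into whole reads. This held for 94.4% to 96.7% of them (tolerance 0.001), and mapped reads came to 3463538 to 5832101. All 49 members then had whole reads. That is no separate check of the depth, since not all of their lengths were those of GENCODE M21. At this depth values of few reads are imprecise, and such counting error is the least error they carry.

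The fit on log2(RPKM + 1) of genes that reached an RPKM of 1 in 2 or more libraries was made with limma 3.58.1 in R 4.3.3, as 4 groups in 1 fit with a mean-variance trend and 4 residual degrees of freedom, and p-values were adjusted by Benjamini-Hochberg over 12514 genes. Ratios were tested by an exact permutation within each day. Python 3.11.15, numpy 2.4.6, pandas 2.3.3, scipy 1.17.1 and matplotlib 3.10.9 did the rest, and the scripts were tested on simulated data.

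Genes were named by rule, apart from Psmd4, Psma4, Psmd9, Nfe2l1 and Nfe2l2, which were named after their values were seen. The rule took the immunoproteasome members, their counterparts, the highest and lowest mean RPKM of each subcomplex, up to 3 of the largest changes per list, and the most abundant gene of each list. Members and lists were chosen with earlier results of these data known. Alternatives were pseudocounts of 0.1 and 5, no filter or a mean RPKM of at least 5, 3 scalings between libraries, replicate blocks, the 4 libraries compared alone, no trend, and leaving out each library. Limma's voom on the recovered reads was added after seeing the data. Paaf1 and Itgam were not analysed here.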

Additional observations from a re-analysis of the deposited data

Results flagged for a closer look

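For 2 members every LAMZ library lay below the control libraries at day 7 and above them at day 14, as did 2.73% of all tested genes. For Psmb5 the log2 effect of LAMZ at day 14 minus that at day 7 was 0.62, from RPKM of 56.9 and 55.7 in control and 52.5 and 55.1 with LAMZ at day 7, and 34.9 and 42.4 in control and 55.3 and 58.3 with LAMZ at day 14. Its log2 fold change at day 7 was -0.07 and turned to 0.05 under median centring. For Psmd4 the same difference was 0.68, from RPKM of 26.9 and 21.2 in control and 17.1 and 19.5 with LAMZ at day 7, and 15.5 and 19.5 in control and 22.1 and 21.5 with LAMZ at day 14. Neither difference passed the test of the LAMZ effect between the days by limma, with adjusted p = 0.159 for Psmb5 and adjusted p = 0.197 for Psmd4.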

How the results depend on the processing

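Counts of proteasome members called moved with the processing. At day 7, 4 were called, and 13 of 20 alternatives gave a count within 1.5 times of it. The others, with the share of all tested genes called, were 2 with no filter (3.18%), 17 after rescaling to the same sum (28.7%), 2 with the replicate block within each day (7.86%), and 1 or 2 without any 1 of the 4 day 7 libraries. Over all left-out libraries the count was 1 to 4. At day 14, 5 were called, 18 after rescaling to the same sum (46.3%), 3 with the 4 libraries compared alone (19.6%), and 1 to 6 when libraries were left out. The difference between the days gave 0 calls in all 19 alternatives, including voom. Few genes of any kind were called there, 0 with no filter and at most 3.28% of all tested genes (voom). The count of 0 therefore says little about the members. Over time in control cells, where limma called 0, there was 1 call with a pseudocount of 5 (5.79%) and 4 with voom (8.87%). There were 2 each with a mean RPKM of at least 5 (10.3%), median centring (5.67%) and quantile normalization (6.26%). Leaving out any 1 library lowered the share of all tested genes called in this comparison. Over time with LAMZ, where 6 were called, the counts were 0 with no filter (3.64%), 10 with a mean RPKM of at least 5 (24.1%) and 1 after rescaling to the same sum (12.2%). They were 3 with the replicate block across all groups (12.4%), 1 without a mean-variance trend (12.9%) and 15 with voom (22.6%). Leaving out single libraries moved both the member count and the share of all tested genes called.

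The constitutive median minus that of all tested genes was 0.02 at day 7, below the spread of 0.0623 between replicates. There it was -0.047 with no filter, -0.032 after rescaling to the same sum, -0.0026 with a pseudocount of 5, -0.0020 after quantile normalization, 0.015 with a mean RPKM of at least 5, 0.039 with a pseudocount of 0.1, 0.037 with voom and 0.0049 to 0.024 when libraries were left out. At day 14 it was 0.08, against -0.0097 with no filter, 0.0094 after quantile normalization, 0.028 after rescaling to the same sum, 0.026 with a pseudocount of 5, 0.038 with a mean RPKM of at least 5, 0.13 with voom, and 0.011 to 0.15 when libraries were left out. For the difference between the days it was 0.04, -0.013 with a mean RPKM of at least 5, 0.019 with a pseudocount of 5, and -0.070 to 0.14 when libraries were left out. Over time it was -0.22 in control cells, with -0.29 to -0.14 when libraries were left out. With LAMZ it was -0.22 over time, -0.29 with no filter, and -0.30 to -0.077 when libraries were left out.

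Signs of small differences turned. Under median centring they were 0.048 for Psmb5, 0.038 for Psmb7 and 0.0096 for Psme3 at day 7, and 0.065 for Psmb6 and 0.13 for Psmb7 at day 14. Quantile normalization gave 0.015 for Psmb7 at day 7 and 0.064 at day 14. Rescaling to the same sum gave -0.15 for Psmb6 at day 7 and -0.31 for Psme3 at day 14. When libraries were left out, Psmb7 ranged from -0.20 to 0.053 at day 7 and from -0.25 to 0.13 at day 14, and Psme3 from -0.067 to 0.13 at day 14. Rescaling shifts all genes of a library by construction, and dropping the filter adjusts over more genes. The cause of the other moves was not tested.

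Deviations of same-numbered libraries from their group means correlated across genes at -0.0166 (day 7), 0.0158 (day 14), 0.0620 (control over time) and -0.0342 (LAMZ over time), so the replicates were not taken as paired. Losses under a replicate block are among the alternatives counted above. The block within each day ended the day 7 calls of Psme2 (adjusted p = 0.0620), Psmc4 (0.0945), Ubb (0.0927) and Adrm1 (0.0751) and the day 14 call of Nfe2l2 (0.0536). That across all groups ended the day 14 call of Tap2 (0.0684) and the calls over time with LAMZ of Psma4 (0.0710), Psma5 (0.0631) and Psmd9 (0.0674).

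With 2 libraries a group and 4 residual degrees of freedom, a difference that did not pass is not shown to be absent. A library left alone in its group was assumed to vary like the others. Psmb9, at 3 to 37 reads, and Psme2b, at 0 to 9, had too few reads for precise folds. Values are relative to the mapped reads of each library, and no scaling between libraries or count of cells is given. Overlapping genes on opposite strands could not be separated.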
